A study of Mus musculus with 32 samples.

Results

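The transcripts described here are those of 8 mouse genes that encode chaperones and folding enzymes of the endoplasmic reticulum (ER): Hspa5, Hsp90b1, Calr, Canx, Pdia3, Pdia4, Pdia6 and Dnajb9. The members were taken as a set because their interactions rose in the NPM libraries of both cell lines, and a listed interaction was assigned to them when the Ensembl identifier of its RNA tag was that of a member. All 8 were found, among 17784 transcripts in the files, with 12031 of 25231081 listed interactions, counted after lines for the same pair of tags were merged. Since the NPM and 1FA libraries chose the members, the difference between NPM and 1FA is given below as a description without a test.

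RADICL-seq joins RNA to nearby chromatin in crosslinked nuclei, and each read pair gives the position of an RNA tag and of a DNA tag. The 15 libraries form 6 groups. R08 mouse embryonic stem cells (mESC) were fixed with 1% formaldehyde (mESC 1FA, 3 libraries), with 2% formaldehyde (mESC 2FA, 3 libraries), with 1% formaldehyde after 4 hours in actinomycin D at 5 µg per ml, an inhibitor of transcription (mESC ActD4, 2 libraries), or with 1% formaldehyde followed by protein digestion and crosslink reversal ahead of RNA ligation (mESC NPM, for non-protein-mediated, 2 libraries). Oli-neu cells, an immortalised line of oligodendrocyte progenitors (mOPC), were treated as 1FA (3 libraries) and as NPM (2 libraries). By the paper's methods, NPM ligations were done in solution after crosslink reversal, with polyethylene glycol added for the RNA ligation, and not in crosslinked nuclei. Protein removal and these changes of ligation cannot be told apart in NPM against 1FA. Each cell type is represented by a single line, and the replicates of a line were cell batches of different passage.

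The files held 274304 to 3014022 lines per library. After lines for the same pair of tags were merged, the number of listed interactions per library ran from 251802 to 2832717. Levels below are listed interactions of a transcript per 1000000 listed interactions of the library (CPM). The files hold only pairs of a transcript and a 25-kb DNA bin that the authors called significant on pooled replicates, so a level is a share of significant contacts and not of RNA, and an unlisted transcript is not an absent one. Of 10 stem cell markers, 8 or 9 were listed in the 4 mESC groups and 1 or 2 in the mOPC groups. Of 9 oligodendrocyte progenitor markers, 7 were listed in mOPC 1FA and 9 in mOPC NPM, against 1 to 5 in mESC groups. These markers summed to 2064 to 3196 CPM in mOPC, and to 6.75 to 33.2 CPM in mESC 1FA and 75.5 to 110 CPM in mESC NPM. Fibroblast markers were not listed in any 1FA, 2FA or ActD4 library, and summed to at most 11.5 CPM in NPM. Of 6 markers of differentiating stem cells, 1 to 3 were listed in a mESC group and 0 or 1 in a mOPC group. They summed to 49.1 to 189 CPM in mESC 1FA, 23.2 to 217 CPM in mESC 2FA and 63.5 to 64.5 CPM in mESC ActD4. In mESC NPM they summed to 223 to 228 CPM, and in mOPC to at most 4.2 CPM. Of 7 astrocyte and neuron markers, 2 or 4 were listed in each group, with 2 in mOPC 1FA. They summed to 59.6 to 212 CPM in mESC libraries and 353 to 437 CPM in mOPC libraries. Of 3 tested, 1 was called higher and 2 lower in mOPC 1FA than in mESC 1FA (limma), so the sums do not stand for each marker. Over all transcripts 33.7% were called higher and 44.6% lower in that comparison. Whether such cells were present or had a part in the results was not tested.

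Proteins of the secretory pathway enter the ER lumen unfolded. Hspa5 (BiP), an Hsp70-type ATPase, binds them first, J-domain proteins such as Dnajb9 deliver clients to it and stimulate its ATPase, and Hsp90b1 (endoplasmin) matures a later set of clients. Calr and Canx, a soluble and a membrane-bound lectin, hold glycoproteins that carry a single terminal glucose, and the disulfide isomerases Pdia3, Pdia4 and Pdia6 form and rearrange disulfide bonds. When unfolded proteins accumulate, the unfolded protein response, through the sensors Atf6, Ern1 and Eif2ak3, raises the transcription of these genes, in part through the ER stress element, a CCAAT box and a CCACG box held apart by a fixed spacer.

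The element, CCAAT followed after 9 bases of any kind by CCACG, was searched on both strands from 250 bases before to 50 bases after the start of each gene in RefSeq (GRCm38.p6). It was present in 5 of the 8 members and in 39 of 32851 promoter windows of the same length (0.119%). The sequences are shown because 5 members share this DNA feature. The element belongs to the known regulation of this gene class, so its presence here is not an independent result. Capitals mark the CCAAT and CCACG boxes, read 5′ to 3′ in the direction of the motif:
Hspa5, chr2:34772025-34772043, along the gene: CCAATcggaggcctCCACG
Hsp90b1, chr10:86705638-86705656, along the gene: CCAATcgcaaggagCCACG
Hsp90b1, chr10:86705533-86705551, against the gene: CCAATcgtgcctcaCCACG
Calr, chr8:84847075-84847093, against the gene: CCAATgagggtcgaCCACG
Canx, chr11:50325800-50325818, along the gene: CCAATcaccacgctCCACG
Pdia6, chr12:17266491-17266509, along the gene: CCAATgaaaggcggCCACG
These letters were not found in the windows of Pdia3, Pdia4 and Dnajb9. Among the gene lists used for comparison they were present for 3 of 27 other ER folding genes (Creld2, Dnajc3 and Ero1b), 1 of 21 ER degradation and translocation genes (Syvn1), and none of 14 regulators of the unfolded protein response, 19 cytosolic chaperones or 7 mitochondrial chaperones with a window. No measurement in these libraries bears on binding at these elements.

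Of the Hsp70 and Hsp90 chaperones, Hspa5 (chr2:34771970-34777547, plus strand, 9 exons) was at 1420 and 833 CPM in the 2 mESC NPM libraries, against 6.37, 33.2 and 30 CPM in the 3 mESC 1FA libraries. In mOPC it was at 193 and 182 CPM in NPM and at 13.1, 8.54 and 12.5 CPM in 1FA. Every NPM library lay above every 1FA library of its line, and replicate 1 of mESC 1FA lay well below the others. On the scaled log2 scale of the fit the difference of NPM from 1FA was 5.15 in mESC and 3.21 in mOPC.

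Hsp90b1 (chr10:86690209-86705509, minus strand, 18 exons) was at 1445 and 946 CPM in mESC NPM and at 24.4, 57.3 and 42.7 CPM in mESC 1FA, a log2 difference of 4.19. In mOPC it was at 203 and 136 CPM in NPM and at 17.6, 7.59 and 9.0 CPM in 1FA, a log2 difference of 3.10. The NPM and 1FA libraries again did not overlap in either line. The annotation places Gm15344 and Gm25745 on the same strand within Hsp90b1, so some of its tags could also be counted to those genes. Dnajb9 (chr12:44205559-44210326, minus strand), the J-domain partner, had 61 interactions over all libraries and did not pass the filter on low counts in any comparison. It was at 2.30 and 11.5 CPM in mESC NPM and at 1.5, 0.819 and 2.82 CPM in mESC 1FA, which overlapped. In mOPC it was at 6.29 and 4.2 CPM in NPM and at 2.71 and 1.00 CPM in 2 of the 1FA libraries, and was not listed in the third or in mESC ActD4.

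Of the lectins, Calr (chr8:84841850-84846934, minus strand, 9 exons) was at 513 and 322 CPM in mESC NPM and at 19.5, 37.7 and 31.8 CPM in mESC 1FA (log2 difference 3.12). In mOPC it was at 43.2 and 33.6 CPM in NPM and at 3.62, 1.90 and 4.00 CPM in 1FA (log2 difference 2.73). Canx (chr11:50293961-50325673, minus strand, 15 exons), the longest member, was at 165, 173 and 159 CPM in mESC 1FA and at 511 and 442 CPM in mESC NPM (log2 difference 0.82). In mOPC it was at 19.9, 18.5 and 33 CPM in 1FA and at 319 and 122 CPM in NPM (log2 difference 2.26). Canx thus had the smallest difference of the 7 measured members in mESC, and the fourth largest in mOPC, where its NPM libraries were the furthest apart of any member.

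Of the disulfide isomerases in mESC, Pdia3 (chr2:121413775-121438687, plus strand, 13 exons) was at 267 and 190 CPM in NPM and at 26.2, 45.5 and 47.3 CPM in 1FA, Pdia4 (chr6:47796141-47813430, minus strand, 10 exons) at 209 and 167 CPM against 19.1, 36.9 and 38.1 CPM, and Pdia6 (chr12:17266545-17284770, plus strand, 13 exons) at 136 and 92.0 CPM against 22.5, 36.5 and 32.8 CPM. Their log2 differences in mESC were 1.85, 1.94 and 1.19. In mOPC, NPM levels were 108 and 63.8 CPM for Pdia3, 29.9 and 16.8 CPM for Pdia4, and 27.5 and 12.6 CPM for Pdia6, and the log2 differences were 1.13, 1.51 and 1.79. Replicate 1 of mESC 1FA was the lowest of its group for 6 of the 8 members, all but Canx and Dnajb9.

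All 7 members that passed the filter were thus higher in every NPM library than in every 1FA library of the same line, in mESC and in mOPC. Over all tested transcripts, the libraries were apart in this direction for 34.2% of 11410 in mESC and for 44.3% of 11586 in mOPC. The members were selected on this difference, and in mOPC Calr, Pdia4 and Pdia6 met the filter only within NPM, so nothing is read from the counts or medians. The median log2 difference over the 7 members was 1.94 in mESC and 2.26 in mOPC, against 0.01 and 0.30 over all tested transcripts. With libraries scaled by their totals the medians of all transcripts were 0.70 and 1.12, and those of the members 2.63 and 3.08. Summed over the 8 members, the level was 3753 ± 1060 CPM in mESC NPM (SD, n = 2) and 363 ± 70.7 CPM in mESC 1FA (SD, n = 3), and 750 ± 253 CPM in mOPC NPM (SD, n = 2) against 80.0 ± 17.1 CPM in mOPC 1FA (SD, n = 3).

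**Figure D1:**
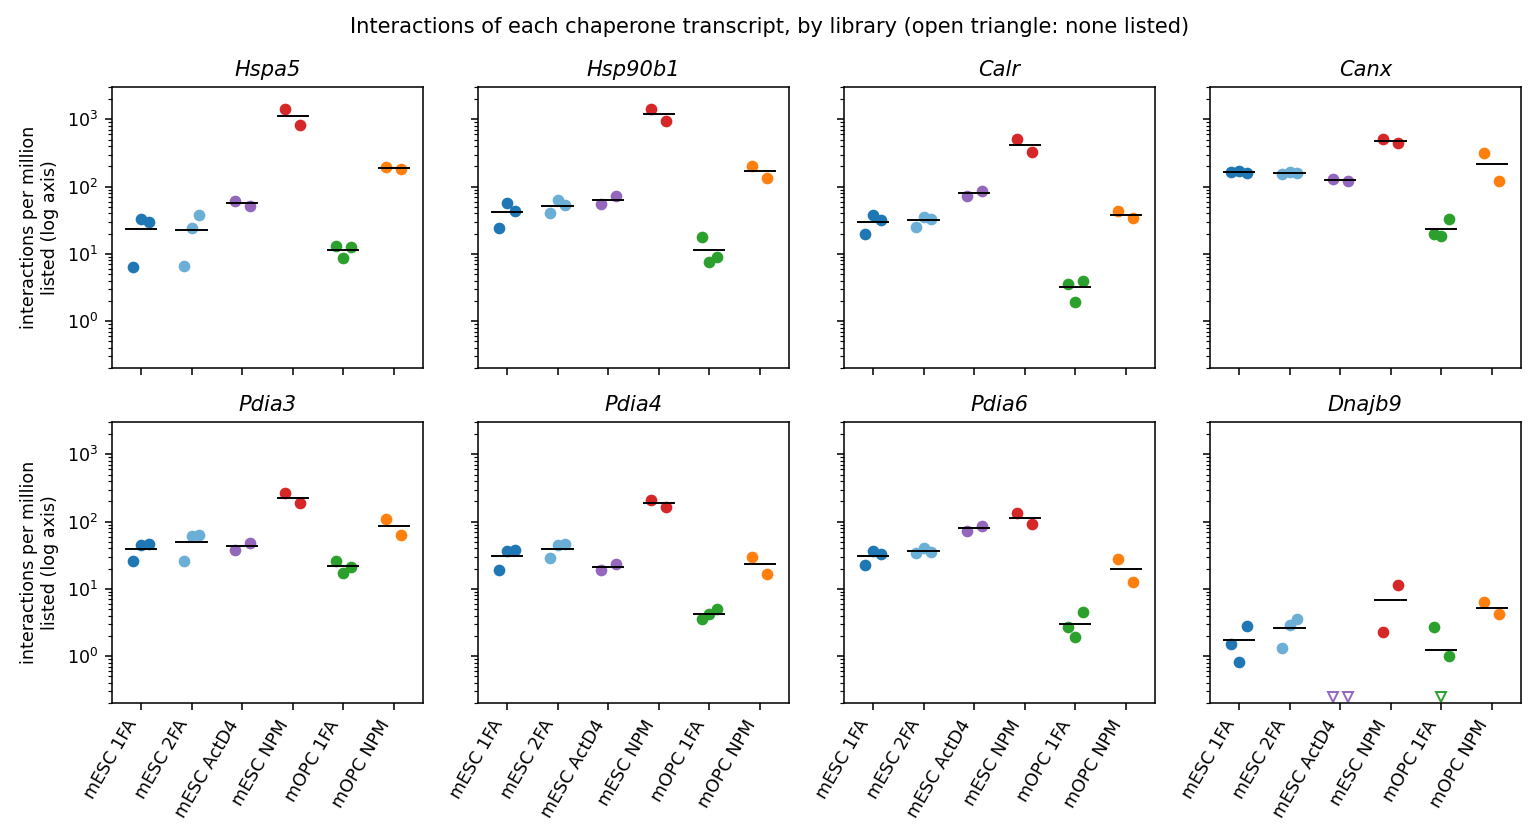
Level of each chaperone transcript, in listed interactions per 1000000, CPM (vertical log axis), in each of the 15 libraries by group. Points are libraries, black lines group means, and open triangles mark libraries in which the transcript was not listed. For 7 of the 8 members both NPM libraries of a line sit above its 1FA libraries, from 1445 CPM for Hsp90b1 in mESC NPM down to 1.90 CPM for Calr and Pdia6 in mOPC 1FA.

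The span of a gene moved with this difference over all transcripts. Among transcripts of genes spanning up to 10 kb, the median log2 difference of NPM from 1FA was 0.96 in mESC and 1.32 in mOPC, and among genes over 100 kb it was -0.70 and -0.49. The 2 shortest members in the test, Hspa5 (5.58 kb) and Calr (5.09 kb), had log2 differences of 3.12 to 5.15 in mESC and 2.73 to 3.21 in mOPC. The 4 members between 10 and 30 kb had differences of 1.19 to 4.19 in mESC and 1.13 to 3.10 in mOPC, where all transcripts of that span had medians of 0.34 and 0.56. Canx, the member between 30 and 100 kb, had differences of 0.82 and 2.26, where all transcripts of that span had medians of -0.26 and -0.043. In mOPC it thus lay above the shorter Pdia3, Pdia4 and Pdia6. The part of gene length in the members' difference was not tested.

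The exonic and intronic RNA tags of the chaperones behaved differently. In mESC 1FA, 26.7 ± 1.92% of the members' interactions had an exonic RNA tag (SD, n = 3), and in mESC NPM 86.8 ± 4.51% (SD, n = 2). In mOPC the shares were 37 ± 4.40% in 1FA (SD, n = 3) and 79.4 ± 5.81% in NPM (SD, n = 2). Most of the exonic tags in NPM lay in coding sequence, with 80.5% and 74.1% of the interactions in the 2 mESC NPM libraries and 66.5% and 64.0% in the mOPC NPM libraries. Over all transcripts, exonic tags made up 30.8% to 36.4% of the interactions of a NPM library and 17.8% to 24.3% of a 1FA library.

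Counted separately, exonic interactions of the 8 members summed to a mean of 97.8 CPM in mESC 1FA and 3283 CPM in mESC NPM, a ratio of 33.6, whereas intronic ones went from 266 to 470 CPM, a ratio of 1.77. In mOPC the ratio was 20.5 for exonic and 2.92 for intronic interactions. On the scaled log2 scale the exonic difference was between 2.75 (Canx) and 5.58 (Hsp90b1) in mESC and between 2.74 (Pdia6) and 3.60 (Hsp90b1) in mOPC, with medians over all tested transcripts of 0.47 and 0.76. The intronic difference was between -0.54 (Canx) and 2.90 (Hspa5) in mESC, above 0 for 4 of 7 members, and between -0.25 (Pdia3) and 2.86 (Hspa5) in mOPC, above 0 for 6 of 7. The intronic medians over all tested transcripts were -0.32 and -0.12. Hspa5 was the member with the largest intronic difference in both lines, yet it has few intronic bases, with exons over 65.8% of its principal transcript's span. Its intronic interactions numbered 6, 7 and 12 in the mESC 1FA libraries and 6, 2 and 0 in mOPC 1FA. Exonic interactions in mOPC 1FA numbered 1, 1 and 3 for Pdia4 and 3, 0 and 2 for Pdia6. These differences from 1FA thus rest on few interactions.

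**Figure D2:**
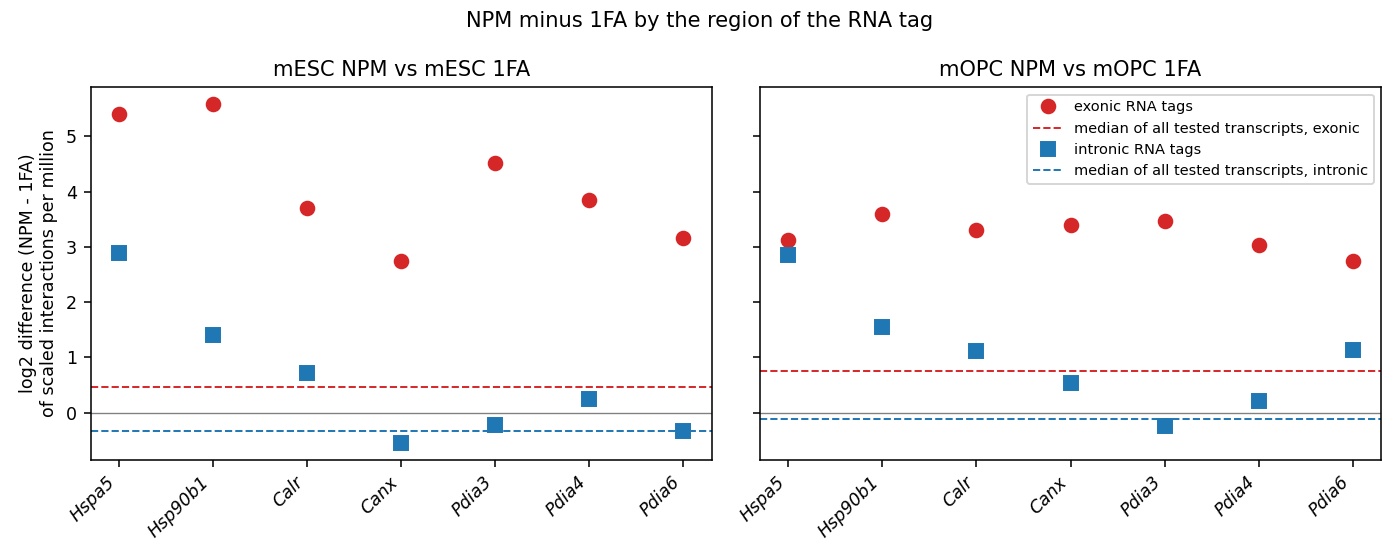
Log2 difference of NPM from 1FA, on the scaled log2 CPM scale, for exonic (red circles) and intronic (blue squares) RNA tags of the 7 members that passed the filter, in mESC (left) and mOPC (right). Dashed lines are the medians over all tested transcripts. In mESC the exonic points run from 2.75 to 5.58 and the intronic ones from -0.54 to 2.90. In mOPC the intronic point of Hspa5 and the exonic points of Pdia4 and Pdia6 rest on few 1FA interactions.

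Levels of different genes are compared per kilobase. In mESC NPM the exonic level per kilobase of exon was 384 ± 124 CPM for Hsp90b1, 295 ± 109 for Hspa5, 177 ± 67.2 for Calr, 75.7 ± 13.8 for Canx, 65.4 ± 23.8 for Pdia3, 58.0 ± 21.1 for Pdia4 and 37.2 ± 8.78 for Pdia6 (SD, n = 2). Neighbours in this order differed by no more than the larger of their SDs, except Calr from Hspa5 and Canx from Calr. In mOPC NPM, Hsp90b1 (49.3 ± 18), Hspa5 (47.5 ± 3.39) and Canx (41.1 ± 30.6) were not separated by more than their spread, and Pdia6 (4.60 ± 2.69) was the lowest of the 7. In mESC 1FA the highest means were those of Calr (8.25 ± 2.61 CPM per kilobase of exon), Canx (6.84 ± 0.598) and Hspa5 (5.46 ± 3.81; SD, n = 3). They differed by no more than the larger of their SDs. Hspa5 was at 1.12 in replicate 1 and at 8.25 and 7.02 in the others, so no order is read from them. Intronic levels per kilobase of intron were lower than exonic ones for all 7 in NPM, for example 21.6 ± 8.67 for Hspa5 and 8.86 ± 0.248 for Hsp90b1 in mESC NPM (SD, n = 2), whereas in mESC 1FA Pdia3 was equal on both, at 1.60 ± 0.187 in exons and 1.59 ± 0.532 in introns (SD, n = 3).

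Distance between RNA and DNA tag also differed. Interactions within 1 kb made up 14.4 ± 5.19% of the members' interactions in mESC 1FA, 17.1 ± 8.13% in mESC 2FA and 31.9 ± 8.15% in mOPC 1FA (SD, n = 3). They made up 29.9 ± 2.20% in mESC ActD4, 69.1 ± 1.81% in mESC NPM and 75.1 ± 6.96% in mOPC NPM (SD, n = 2). Canx held 1313 of the 2876 pooled interactions in mESC 1FA, with 5.64% within 1 kb. The mean of the members' own shares there was 22.5%. In the NPM libraries the members were below the share of all transcripts, which was 84.4% to 87.9%. In the other groups they were above it, with group means over all transcripts of 4.54% in mESC 1FA, 6.31% in mESC 2FA, 14.1% in mESC ActD4 and 5.27% in mOPC 1FA. For the 8 members summed, the ratio of NPM to 1FA CPM within 1 kb was 47.4 in mESC and 21.6 in mOPC. Beyond 1 kb or in trans it was 3.78 and 3.61. The distance followed the region of the tag. Of 3292 exonic interactions in mESC NPM, 65.5% lay within 1 kb and 30.8% at 1 to 10 kb, whereas of 494 intronic ones 92.9% lay within 1 kb and 3.24% at 1 to 10 kb. In mOPC NPM the shares at 1 to 10 kb were 31.3% of 1500 exonic and 2.20% of 363 intronic interactions. In mESC 1FA, 35.1% of intronic interactions lay at 10 to 100 kb and 31.6% at 100 kb to 1 Mb.

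**Figure D3:**
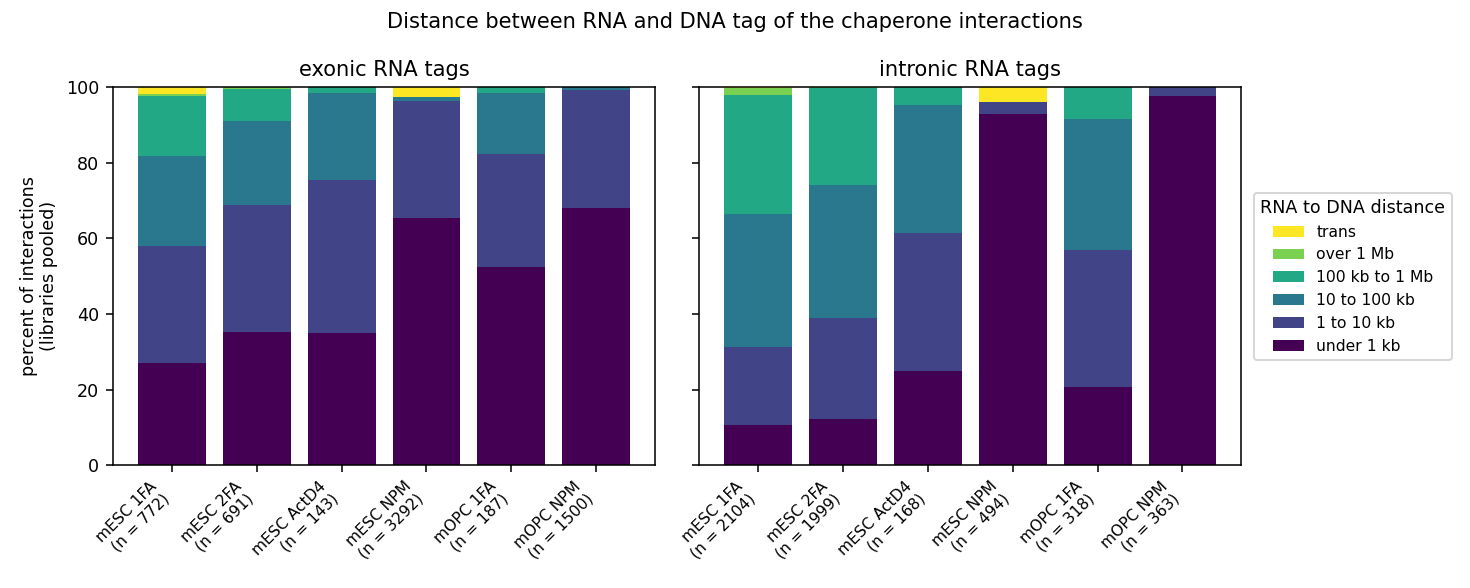
Percent of the members' interactions in each class of RNA to DNA distance (stacked colours), for exonic RNA tags (left) and intronic RNA tags (right), libraries pooled within each of the 6 groups, with the number of interactions under each bar. In NPM the class from 1 to 10 kb holds 30.8% (mESC) and 31.3% (mOPC) of exonic interactions, and 3.24% and 2.20% of intronic ones.

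Nearly all NPM contacts of the chaperones lay in the member's own gene: 97.1 ± 1.49% in mESC (SD, n = 2) and 100% in both mOPC NPM libraries, against 35.3 ± 6.49% in mESC 1FA and 61.7 ± 5.20% in mOPC 1FA (SD, n = 3). Over all transcripts the own-gene share was also high in NPM, 95.2% in mESC and 94.2% in mOPC, against 31.2% in mESC 1FA and 34.3% in mOPC 1FA (group means). Contacts of Canx reached 55 bins in the pooled mESC 1FA libraries, up to 1508 kb away, and 5 bins in mESC NPM. For Hspa5 the furthest contact in cis was 50.9 kb in mESC 1FA and 3.57 kb in mESC NPM. Of 106 contacts with other chromosomes in mESC NPM, 86 fell in 1 bin on chromosome 17 (39825001 to 39850000), which holds a gene annotated as ribosomal RNA (CT010467.1), from Hsp90b1 (26), Canx (17), Hspa5 (17), Calr (14) and Pdia3 (12), and the other 20 in 1 bin on each of 2 other chromosomes. All 17 such contacts in mESC 1FA fell in the same bin, 10 of Hsp90b1 and 7 of Canx. No contact with another chromosome was listed for any member in the other 4 groups.

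Within the own gene, the DNA tags were set against the exons of each gene's principal transcript (GENCODE M21). In mESC NPM, of 3151 pairs with the RNA tag in an exon, 3060 had the DNA tag in an exon too, 98.4% and 95.6% in the 2 libraries. In mOPC NPM it was 1423 of 1465, 98.3% and 94.9%. The share was 57.1%, 62.2% and 60.2% in the 3 mESC 1FA libraries, of which 303 pairs were available in all, and 89.5%, 84.4% and 84.6% in mOPC 1FA, of 115 pairs. Exons cover 11.1% (Pdia3) to 65.8% (Hspa5) of the span of these transcripts. For pairs with the RNA tag in an intron, the DNA tag lay in an exon in 22.8 ± 3.95% in mESC NPM and 20 ± 7.04% in mOPC NPM (SD, n = 2).

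This held for each of the better covered members. In mESC NPM the DNA tag of exonic RNA was exonic for 98.7% of pairs of Hspa5, 97.2% of Hsp90b1, 94.7% of Calr, 95.5% of Canx, 97.7% of Pdia3, 94.2% of Pdia4 and 95.9% of Pdia6. All other transcripts summed had 89.0 ± 2.89% in mESC NPM and 88.1 ± 4.58% in mOPC NPM (SD, n = 2). Among the 1160 genes with over 1 exon and at least 50 exonic pairs in mESC NPM, the median per gene was 92.0% and all 7 members with that many were above it. In mOPC NPM 5 members reached 50 pairs and all 5 were above the median of 90.6% over 2510 genes. Exonic DNA tags were thus frequent over NPM transcripts in general.

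The tags of these NPM pairs often lay in different exons: in 58.3 ± 2.33% in mESC and 52.3 ± 2.49% in mOPC (SD, n = 2). Of the 1790 such pairs in mESC NPM, 1789 had the DNA tag in the upstream exon and the RNA tag in a downstream one, as had all 753 in mOPC NPM. It was 43 of 79 in mESC 1FA, 73 of 86 in mESC 2FA, 21 of 32 in mESC ActD4 and 25 of 29 in mOPC 1FA. The sequence across the boundary most often bridged by tags in neighbouring exons is shown for 4 members, since these joined exons lie together in the mature RNA and apart in the genome. Each runs 5′ to 3′ along the spliced transcript (GENCODE M21), with the last 15 bases of the upstream exon in capitals:
Hspa5, exons 6 and 7: GAAGAGCTGAACATGgacctgttccgctct
Hsp90b1, exons 12 and 13: TCAAGCAGAAAGGAGgcggaatcttctcca
Calr, exons 4 and 5: GATATCCGGTGTAAGgatgatgaattcaca
Canx, exons 11 and 12: GATGGGGCTGCTGAGccaggtgtagtgctg
The Hspa5 boundary was bridged by 171 NPM pairs, 120 in mESC and 51 in mOPC, over an intron of 116 bases (chr2:34774419-34774534). That of Hsp90b1 was bridged by 137 pairs over an intron of 190 bases (chr10:86694160-86694349), that of Calr by 48 pairs over 87 bases (chr8:84844784-84844870), and that of Canx by 30 pairs over 892 bases (chr11:50298237-50299128). In all 4 cases every pair had its RNA tag in the downstream exon.

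Distances were shorter when counted along the spliced transcript. For pairs with both tags in exons, the median position of the DNA tag relative to the RNA tag, negative on the 5′ side, was -445.5 bases in the genome and -195.5 bases on the spliced transcript in mESC NPM, and -384 and -165 bases in mOPC NPM. In mESC 1FA both medians were -31 bases. Of the 1031 pairs at least 1 kb apart in the genome in mESC NPM, 994 were within 1 kb on the spliced transcript, and in mOPC NPM 468 of 475. In mESC 1FA it was 34 of 58. For all other transcripts together it was 70703 of 73460 in mESC NPM, 113706 of 117549 in mOPC NPM and 7972 of 28317 in mESC 1FA. High shares within 1 kb on the spliced transcript were thus general to NPM pairs. For the members' pairs with both tags in exons, the DNA tag was on the 5′ side in 98.0 ± 0.324% in mESC NPM and 97.1 ± 0.451% in mOPC NPM (SD, n = 2). In 1FA it was 66.9 ± 1.71% in mESC and 79.6 ± 4.82% in mOPC (SD, n = 3). Intronic RNA in NPM showed the same side, at 95.8% in both mESC libraries, whereas in mESC 1FA 35.6 ± 2.55% of intronic pairs had the DNA tag on the 5′ side (SD, n = 3). All other transcripts together had the DNA tag on the 5′ side in 96.3 ± 0.339% of exonic pairs in mESC NPM (SD, n = 2) and 53.0 ± 2.14% in mESC 1FA (SD, n = 3).

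**Figure D4:**
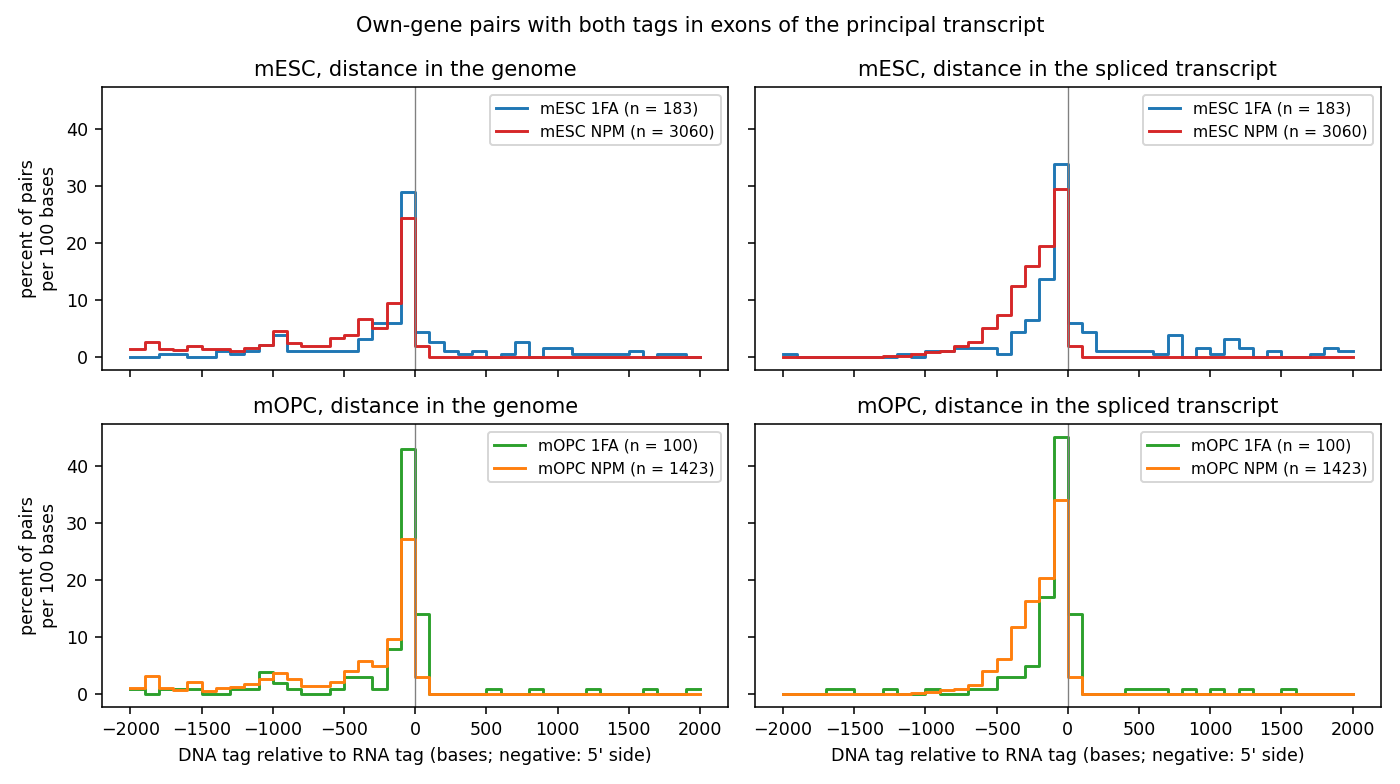
Position of the DNA tag relative to the RNA tag, in bases, for own-gene pairs of the 8 members with both tags in exons, in the genome (left) and along the spliced transcript (right), for mESC (top) and mOPC (bottom). Lines give the percent of pairs per 100 bases in 1FA and NPM, libraries pooled. In NPM nearly all pairs lie on the 5′ side, and most of the tail that reaches beyond 1 kb in the genome falls within 1 kb on the spliced transcript.

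The position of exonic RNA tags along the mRNA differed between members. In mESC NPM the median position was 46.3% of the way along the spliced transcript over 3151 tags, and in mOPC NPM 43.9% over 1465 tags. Hspa5 had 0.380% of its 1054 mESC NPM tags and 0.475% of its 421 mOPC NPM tags in the last 25% of its annotated transcript, and Pdia3 had none of 172 and 137. Calr had 1.75% of 342 and Canx 3.51% of 313 mESC NPM tags there. Hsp90b1 had 25.8% of 1060 and 23.5% of 336 tags there, Pdia4 32.8% of 137 and 19.4% of 36, and Pdia6 9.59% of 73 and 18.2% of 22. In mESC 1FA the last 25% held 8.43% of 83 Hspa5 tags and 15.5% of 58 Hsp90b1 tags.

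The other comparisons were tested with limma over all transcripts. Each of them shares libraries with the NPM and 1FA contrasts that selected the members, and a selection on low mESC 1FA levels favours a rise of ActD4 or 2FA over 1FA, so these tests are not independent of the selection. In bulk libraries, fewer cells with a transcript and less of it per cell cannot be told apart. Calr and Pdia6 rose among the listed interactions, from 19.5, 37.7 and 31.8 to 71.6 and 87.4 CPM for Calr (log2 difference 1.25 ± 0.30 SE, adjusted p = 0.00853) and from 22.5, 36.5 and 32.8 to 71.6 and 87.4 CPM for Pdia6 (1.18 ± 0.25 SE, adjusted p = 0.00513). Both had 30 and 22 interactions in the ActD4 libraries, so their levels there are equal. Canx fell, from 165, 173 and 159 to 129 and 123 CPM (log2 difference -0.60 ± 0.11 SE, adjusted p = 0.00266).

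The other 4 members did not pass. Hspa5 was at 62.1 and 51.6 CPM in ActD4, above every 1FA library, with a log2 difference of 1.38 ± 0.66 SE and adjusted p = 0.109. It passed with voom weights (adjusted p = 0.0272), and without 1FA replicate 1 the log2 difference was 0.63. Hsp90b1 differed by 0.47 (adjusted p = 0.279), or 0.13 without 1FA replicate 1 and 0.73 without 1FA replicate 2, Pdia3 by -0.06 (adjusted p = 0.874) and Pdia4 by -0.69 (adjusted p = 0.122). Pdia4 passed without 1FA replicate 1 (adjusted p = 0.0371) or without ActD4 replicate 2 (adjusted p = 0.0481). Of all 10235 transcripts tested 62.2% were called, 21.0% higher and 41.2% lower, against 3 of 7 members called, 2 of them higher and 1 lower. By library totals 26.6% of all transcripts were called higher and 35.1% lower. The median log2 difference was 0.47 over the members and -0.31 over all transcripts, or -0.099 over all transcripts by totals. The ActD4 libraries were the smallest, with 251802 and 418781 listed interactions. Of the members' interactions in ActD4, 45.3 ± 4.76% had exonic RNA (SD, n = 2), against 26.7 ± 1.92% in mESC 1FA (SD, n = 3), and over all transcripts it was 29% and 29.9% against 17.8% to 19.7%. The exact permutation test of this share gave p = 0.1, the smallest 2 libraries against 3 allow.

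Doubling the formaldehyde, for which the paper also digested longer with DNase I, left no member called (limma, 0 of 7, with 0.0305% of 9837 transcripts called). Fixation and digestion time cannot be told apart here. At an unadjusted p under 0.05 there were 0 members, and voom weights also called 0 members. The labels do not say that same-numbered libraries of these 2 groups belong together, but their deviations correlated. A block on the replicate number was thus chosen from the data it tests. With this block 505 transcripts (5.13%) and no member were called in limma. At an unadjusted p under 0.05 there were then 2 members, Hsp90b1 (adjusted p = 0.165) and Pdia4 (adjusted p = 0.221). Log2 differences of 2FA from 1FA were between -0.12 (Canx) and 0.33 (Hsp90b1). Without the block, the 95% interval was -0.35 to 0.12 for Canx, -0.44 to 0.56 for Calr, -0.17 to 0.67 for Pdia6 and -0.22 to 0.89 for Hsp90b1. For Hspa5 it was the widest, -1.38 to 1.23, and with the block -0.49 to 0.34. Replicate 1 was low in both groups, at 6.37 CPM in 1FA and 6.69 CPM in 2FA, with 24.1 and 38.2 CPM in the other 2FA libraries. With the block the interval was 0.046 to 0.62 for Hsp90b1, -0.31 to 0.076 for Canx, -0.27 to 0.39 for Calr and -0.073 to 0.57 for Pdia6. The exonic share was 25.5 ± 1.42% in 2FA (SD, n = 3; exact permutation p = 0.4, replicate numbers not used). By replicate number it was 24.8%, 28.6% and 26.6% in 1FA and 23.9%, 26.4% and 26.3% in 2FA.

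Between the cell lines, 5 of 7 members were called lower in mOPC 1FA than in mESC 1FA and none higher, where 78.3% of 10007 transcripts were called, 44.6% lower and 33.7% higher, or by library totals 54.3% lower and 26.1% higher. Calr, Pdia4 and Pdia6 met the filter on low counts (4.30 CPM in 3 libraries) only within mESC 1FA, so they entered the test through the group where they were high, and nothing is read from the count of members or their median. With no filter these 3 were called too (adjusted p = 0.000126 to 0.000268). Pdia6 was at 2.71, 1.90 and 4.50 CPM in mOPC, a log2 difference of -2.88 ± 0.32 SE (adjusted p = 6.92e-05), and Calr fell by 2.74 ± 0.34 SE (adjusted p = 0.000123). Canx differed by -2.41 ± 0.19 SE (adjusted p = 7.51e-06), Pdia4, at 3.62, 4.27 and 5.00 CPM in mOPC, by -2.33 ± 0.31 SE (adjusted p = 0.000175) and Hsp90b1 by -1.43 ± 0.38 SE (adjusted p = 0.00932). For each of these 5 all mOPC libraries lay below all mESC libraries, as for 46.2% of transcripts. Without mESC 1FA replicate 2, Hsp90b1 no longer passed (adjusted p = 0.0503).

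Pdia3, at 26.2, 17.6 and 21 CPM in mOPC 1FA, differed by -0.41 (adjusted p = 0.164, 95% interval -0.99 to 0.17), and Hspa5 by -0.30 (adjusted p = 0.652, 95% interval -1.63 to 1.04). Without replicate 1 of mESC 1FA Hspa5 differed by -1.04 (adjusted p = 0.00812) and Pdia3 by -0.67 (adjusted p = 0.021), and all 7 members were called. Without replicate 2 or replicate 3 of mESC 1FA the direction of Hspa5 turned, to 0.099 and 0.051, and it was not called. Pdia3 also passed with libraries scaled by their totals (-0.84, adjusted p = 0.0192). The median was -2.33 over the members and -0.28 over all transcripts, or -0.70 for all transcripts with libraries scaled by their totals. Calr lies on chromosome 8, whose 565 tested transcripts had a median of -1.48. The medians of the chromosomes of the other members were between -0.31 and 0.57, with that of Hsp90b1 (chromosome 10) the highest. In NPM the median of chromosome 8 between the lines was -0.87 over 598 transcripts, of which 43.6% were called lower. The part of chromosome 8 in the differences of Calr was not tested.

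In NPM 6 of 7 members were called lower in mOPC than in mESC. Of 10980 transcripts 50.2% were called and 22.5% called lower (32.7% by library totals). All 7 members had both mOPC libraries below both mESC libraries, as had 36.3% of transcripts. Calr differed by -2.97 ± 0.26 SE (adjusted p = 0.00059), Pdia4 by -2.60 ± 0.31 SE (adjusted p = 0.00198), Hsp90b1 by -2.38 ± 0.27 SE (adjusted p = 0.00166), Pdia6 by -2.12 ± 0.42 SE (adjusted p = 0.0124), Hspa5 by -2.10 ± 0.26 SE (adjusted p = 0.00232) and Pdia3 by -1.0 ± 0.30 SE (adjusted p = 0.0415). The call of Pdia3 was lost with no filter on low counts (adjusted p = 0.0582), beyond 1 kb or trans (adjusted p = 0.0721) and without any one of the 4 libraries (adjusted p = 0.0654 to 0.217). That of Pdia6 was lost without mESC NPM replicate 1 (adjusted p = 0.114), mESC NPM replicate 2 (adjusted p = 0.0706) or mOPC NPM replicate 2 (adjusted p = 0.0709), and that of Hsp90b1 without mOPC NPM replicate 2 (-2.13, adjusted p = 0.0616). Without 1 library the log2 difference was between -1.34 and -0.66 for Pdia3 and between -2.63 and -1.61 for Pdia6. Canx differed by -0.83 ± 0.44 SE and did not pass (adjusted p = 0.173), but did without mOPC NPM replicate 1 (-1.49, adjusted p = 0.0281) and with voom weights (adjusted p = 0.0245). Hspa5 was called between the lines in NPM, a call lost without either mOPC NPM library (adjusted p = 0.0751 and 0.0768) at the same log2 difference of -2.10, and not in 1FA, and whether its difference changed between the conditions was not tested. Without mOPC NPM replicate 2 only 2 members passed, Calr and Pdia4. The summed level of stem cell markers was 1420 and 1478 CPM in mESC NPM and 13.4 and 23.5 CPM in mOPC NPM.

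**Figure D5:**
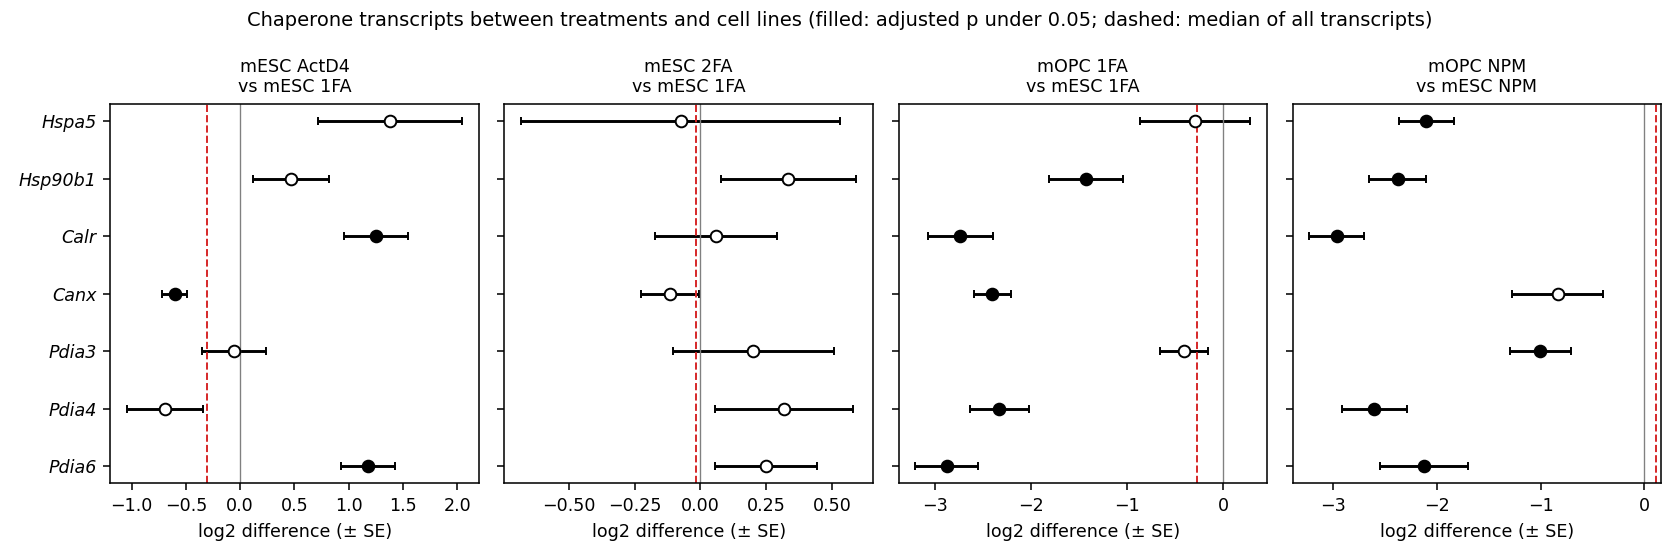
Log2 differences (horizontal axis, ± SE from limma) of the 7 tested members in the 4 comparisons other than NPM against 1FA, each panel with its own scale. Filled points have an adjusted p under 0.05 and dashed lines mark the median of all tested transcripts. Between cell lines the members lie between -2.88 and -0.30 in mOPC 1FA, where Calr, Pdia4 and Pdia6 met the filter only within mESC 1FA, and between -2.97 and -0.83 in mOPC NPM.

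The shares of exonic, near and own-gene contacts were compared between the lines over both conditions, with libraries permuted within condition. The members' own-gene share was higher in mOPC by 14.7 percentage points (exact permutation p = 0.0167, the smallest possible), the share within 1 kb by 11.8 points (exact permutation p = 0.0333) and the exonic share by 1.44 points (exact permutation p = 0.767). Adjusted over the 12 share tests made, these exact permutation p-values were 0.15, 0.15 and 0.767.

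Other genes of the same pathway were called in both directions. In mESC, 16 of 31 tested other ER folding genes were called higher in NPM than in 1FA and 6 lower, with a median log2 difference of 0.85, and in mOPC 9 of 28 higher and 8 lower, with a median of 0.45. Over all transcripts 24.0% were called higher and 28.9% lower in mESC, and 31.4% and 24.5% in mOPC. The direction of calls depended on the scaling: by library totals 48.8% of all transcripts were called higher and 11.2% lower in mESC NPM and 62.8% and 6.47% in mOPC NPM, and of this list 22 higher and 1 lower in mESC and 18 higher and 2 lower in mOPC. Genes of this list were named only if they averaged at least 100 interactions over the libraries. The 1FA libraries were larger than the NPM libraries, so this cut on raw counts favours genes high in 1FA. Nothing is thus read from the direction of the named genes. Sil1, the nucleotide exchange factor of Hspa5, fell by 1.06 in mESC (adjusted p = 0.000358) and by 1.20 in mOPC (adjusted p = 0.000988). Dnajc1, an ER membrane J protein, fell by 1.05 (adjusted p = 0.00155) and by 1.23 (adjusted p = 0.000165). By totals Sil1 differed by -0.36 (adjusted p = 0.0386) and -0.37 (adjusted p = 0.0312), and Dnajc1 by -0.35 (adjusted p = 0.112) and -0.40 (adjusted p = 0.0107).

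Of 16 tested regulators of the unfolded protein response, 1 was called higher and 5 lower in mESC NPM, and 6 higher and 5 lower in mOPC NPM, with medians of 0.06 and 0.41. By totals 7 were called higher and 2 lower in mESC and 11 higher and 2 lower in mOPC. The sensor Ern1 fell by 1.16 in mESC (adjusted p = 0.000641) and by 1.17 in mOPC (adjusted p = 0.000254), and Atf6 fell by 1.36 in mOPC (adjusted p = 0.00115). By totals Ern1 differed by -0.46 (adjusted p = 0.0315) and -0.34 (adjusted p = 0.0273), and Atf6 by -0.53 (adjusted p = 0.0178). Eif2ak3 differed by -0.83 in mESC (adjusted p = 0.00409) but by -0.13 by totals (adjusted p = 0.566), where its libraries overlapped in CPM, at 65.6, 81.5 and 68.1 in 1FA and 75.9 and 55.8 in NPM. Of the ER degradation and translocation genes 7 of 25 were called higher and 5 lower in mESC NPM, and 6 of 24 higher and 3 lower in mOPC NPM (by totals 18 and 0, and 16 and 1).

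Of the cytosolic chaperones 11 of 22 were called higher and 6 lower in mESC NPM, and 7 of 21 higher and 3 lower in mOPC NPM (by totals 15 and 2, and 14 and 1). Hsp90ab1, the cytosolic relative of Hsp90b1, rose by 1.77 in mESC (adjusted p = 0.000496), and in mOPC it was at 6.78, 4.74 and 7.5 CPM in 1FA and at 71.5 and 71.4 CPM in NPM. The J protein Dnajb6 fell by 1.29 in mESC (adjusted p = 0.000576) and by 1.77 in mOPC (adjusted p = 5.03e-05), and by totals Dnajb6 differed by -0.60 (adjusted p = 0.0121) and -0.95 (adjusted p = 0.000272). Of the mitochondrial chaperones 2 of 8 were called higher and 2 lower in mESC NPM (by totals 2 and 0), and 2 of 7 higher and 1 lower in mOPC NPM (by totals 5 and 0), with a median of 0.44 in mOPC. The medians in mESC NPM were 0.28 for degradation genes, 0.49 for cytosolic chaperones and -0.49 for mitochondrial chaperones, or 0.98, 1.18 and 0.20 by totals. These comparisons share their libraries with the contrast that selected the members. The genes named in them met the same cut on raw counts, which favours genes high in 1FA.

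Between the lines, genes of these lists were also called in both directions, as were transcripts in general. Of all 10007 tested transcripts 33.7% were called higher and 44.6% lower in mOPC 1FA. Of 23 tested other ER folding genes 4 were called higher and 5 lower in mOPC 1FA (by totals 4 and 11). The thioredoxin-like Tmx4 was higher in mOPC by 5.66 (adjusted p = 1.16e-06), at 4.50, 2.05 and 3.53 CPM in mESC 1FA. Tmx4 and Atf3, named next, met the filter on low counts (4.30 CPM in 3 libraries) only within mOPC 1FA. They thus entered the test through the group where they were high. Atf3 was at 4.12, 11.1 and 5.65 CPM in mESC 1FA. Among the regulators 7 of 16 were called higher and 6 lower in mOPC 1FA (by totals 4 and 8), with Atf3, a stress-induced transcription factor, higher by 4.76 (adjusted p = 2.54e-06), and Mbtps1 and Mbtps2, the proteases that cleave Atf6, differed by -1.67 (adjusted p = 3.81e-06) and -2.06 (adjusted p = 2.35e-06). In actinomycin D, where 21.0% of all transcripts were called higher and 41.2% lower, 9 of 27 other ER folding genes were called higher and 11 lower (by totals 11 and 9), and 4 of 16 regulators higher and 3 lower (by totals 5 and 2). Of the named genes of these lists, Erp44 fell by 2.04 (adjusted p = 0.000162) and Atf6 fell by 0.72 (adjusted p = 0.00879). The regulator Nfyc fell further than Atf6, from 183, 193 and 202 CPM in 1FA to 69.2 and 51.6 CPM in ActD4. Sil1 went from 269, 302 and 331 CPM in 1FA to 430 and 405 CPM in ActD4.

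The members resembled each other over the 15 libraries, as their selection favours. Pearson's r of a member's log2 level with the mean of the others was 0.94 for Hsp90b1, 0.91 for Calr, 0.90 for Pdia3, 0.88 for Pdia4, 0.85 for Canx, 0.74 for Hspa5, 0.70 for Pdia6 and 0.30 for Dnajb9. Among 3423 other transcripts that averaged 100 interactions or more in a library, those most like the mean profile of the members were Golgb1 (r = 0.89), which encodes a Golgi tethering protein, Smc6, Smc4 and Mki67 (each r = 0.87), which encode proteins of mitotic or repairing chromosomes, and the centrosomal Cep295 (r = 0.87). Mki67 was at 808 ± 27.1 CPM in mESC NPM (SD, n = 2), 144 ± 10.4 CPM in mESC 1FA, 33 ± 4.33 CPM in mOPC 1FA (SD, n = 3) and 220 ± 3.94 CPM in mOPC NPM (SD, n = 2). These correlations run over libraries that fall into groups and share treatments, and are given as a description.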

How the data were processed

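RADICL-seq libraries of R08 mESC and Oli-neu mOPC were analysed from the files of significant interactions deposited by the authors. RNA and DNA tags had been aligned by the authors to mm10 with BWA (0.7.15-r1140 in the submitters' processing notes), kept at mapping quality 37 and assigned to GENCODE M14. The files give, per the labels and methods, deposited tag positions and the p-value and adjusted p-value of each pair of a transcript and a 25-kb bin, called by the authors on pooled replicates, so the spread between replicates is understated. The files hold no counts and no sequencing depth, and p-values measure the spread between batches of 1 line. The second sequencing run of the first mESC NPM library has no file of its own and was not used separately.

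Lines with the same RNA and DNA tag positions, RNA strand, RNA region, bin and transcript counted as 1 interaction, also where other columns such as the DNA gene differed. Interactions were counted per transcript and library. Identical copies made up 16.3% and 9.81% of the members' interactions with copies in mESC NPM, and 0.13% to 0.19% in mESC 1FA. Over all transcripts copies made up 5.81% and 1.13% in mESC NPM. Symbols and exons were taken from GENCODE M21 (99.8% of Ensembl identifiers matched). An APPRIS principal transcript was used per gene. Transcripts with a CPM equal to 10 interactions in the median library in as many libraries as the smaller group holds, and 15 in all, were tested on log2 CPM (TMM scaling computed here, prior count 0.5) with limma 3.58.1 under R 4.3.3, two-sided with an intensity trend. Adjusted p-values (Benjamini-Hochberg, all tested transcripts) under 0.05 were called. On simulated data with 200 of 9837 to 11586 transcripts changed by a log2 value of 2, 71.5% to 92.5% were recovered and 1.38% to 6.19% of calls were false. In the data 62.2% were called in ActD4, and 78.3% (1FA) and 50.2% (NPM) between the lines. The simulated rates need not hold where so many transcripts differ. Shares were compared by exact two-sided permutation tests over libraries. Same-numbered libraries of mESC 1FA and 2FA were taken as pairs from their correlated deviations (0.36, 0.18 and 0.32), which the labels do not state. No other groups were paired.

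The members and the gene lists were chosen with earlier results of these data known. Genes beyond the members were named if they belonged to a list, averaged at least 100 interactions per library, had groups apart and were among the 3 largest called differences of the list, or were among the 5 transcripts most like the members; not all so eligible are printed. Alternatives were scaling by totals, a prior count of 2, no filter, all copies, adjusted p under 0.001, contacts beyond 1 kb or trans, voom weights, a replicate block and leaving out each library.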

Additional observations from a re-analysis of the deposited data

How the results depend on the processing

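The members called kept the same number to within 1.5 times under all alternatives, except that 2 in place of 6 were called between the lines in NPM without mOPC NPM replicate 2 (range 2 to 5 when 1 library was left out). The replicate block called 4 members in ActD4 (Hspa5 added, adjusted p = 0.00823) and 0 in 2FA. In ActD4 the block fit tested 9140 transcripts, as did the fit without mESC 1FA replicate 3, against 10235 in the main setting. Pdia3 had the same log2 difference of 0.10 in both fits. The block fit in ActD4 thus also left out that 1FA library, and the call of Hspa5 is not due to the block alone. Between the lines the block called 5 in 1FA and 7 in NPM (Canx added, adjusted p = 0.05). Same-numbered libraries were taken as pairs only for 1FA and 2FA, where the block changed no member's call. Over all transcripts, the 3 calls in 2FA became 505 with the replicate block, 2081 with no filter on low counts, 5 at adjusted interaction p under 0.001, 0 beyond 1 kb, and 0 to 25 leaving out a library. The 6367 in ActD4 became 10283 with no filter and 4085 to 7305 leaving out a library, and the 5510 between the lines in NPM became 9246 with no filter, 1198 of 2919 tested beyond 1 kb, and 2473 to 4690 leaving out a library. Scaling by totals gave median member differences of 2.63 (mESC NPM) and 3.08 (mOPC NPM), and contacts beyond 1 kb or trans alone 3.85 and 3.30. The values for far contacts are relative to far contacts only, and do not mean a larger rise at distance. On the CPM of all contacts the summed ratio beyond 1 kb was 3.78 in mESC and 3.61 in mOPC, against 47.4 and 21.6 within 1 kb. Leaving out 1 library gave 1.67 to 2.15 in mESC and 1.61 to 2.58 in mOPC, lowest without mOPC NPM replicate 1. Averaging the members' own shares gave 22.5% within 1 kb in mESC 1FA, exonic shares of 36.5% (mESC 1FA), 32.8% (mESC 2FA), 78.2% (mESC NPM) and 68.6% (mOPC NPM), and own-gene shares of 44.7% (mESC 1FA) and 66.9% (mESC ActD4). Counting all copies gave 72.2% within 1 kb in mESC NPM, and adjusted p under 0.001 gave 66.0% own-gene contacts in mESC ActD4. Beyond 1 kb or trans, exonic shares were 23.1% (mESC 1FA), 20.4% (mESC 2FA), 96.9% (mESC NPM), 26.1% (mOPC 1FA) and 97.7% (mOPC NPM), and own-gene shares 25.1% (mESC 1FA), 31% (mESC 2FA), 49.5% (mESC ActD4), 90.5% (mESC NPM) and 45.1% (mOPC 1FA). Apart from what the settings' construction fixes, the cause was not tested. Directions turned for differences that were not called, Pdia3 in ActD4 (0.15 by totals, 0.17 at the stricter p, 0.10 with the replicate block, -0.32 to 0.15 leaving out a library), Calr in 2FA (-0.025 at the stricter p, -0.19 beyond 1 kb, -0.18 to 0.24 leaving out a library), Canx in 2FA (0.0087 at the stricter p), Hspa5 in 2FA (-0.80 to 0.63 leaving out a library), Pdia3 in 2FA (-0.042 to 0.61), Hspa5 between the lines in 1FA (-1.04 to 0.10), and for Sec63, called between the lines in NPM, which was -0.066 beyond 1 kb or trans. Dnajb9, the mOPC 1FA counts of Calr, Pdia4 and Pdia6, and the intronic counts of Hspa5 in mOPC 1FA are limited by the few interactions listed.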
